A study of Mus musculus with 2 samples.

Results

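The microRNAs transcribed antisense to Rtl1, in the imprinted Dlk1-Dio3 domain of mouse chromosome 12, were described in 2 libraries of short RNA from hindbrain at embryonic day 13.5. The hindbrain was dissected from embryos of strain B6NCrl that the labels call healthy, with males and females pooled, and no genotype or treatment differed between the libraries. They are named replicate 1 and replicate 2 after the labels' biological replicate numbers and form 1 group. They come from separate biosamples that share a donor identifier. The genes were chosen by name and by position, as the rows whose identifier carries 1 of 9 symbols in GENCODE M21 and lies in an interval of chromosome 12 that reaches from Meg3 into the Rtl1 coding exon, on the mm10 assembly. Of the 9 names, 8 met this rule, out of 1973 gene rows in all: Mir127, Mir337, Mir431, Mir433, Mir434, Mir493, Mir540 and Mir665. Mir136 did not meet it. Its M21 identifier has no row in these tables, and its hairpin starts 327 nt beyond the end of that interval.

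MicroRNAs are cut from hairpins as short strands that guide Argonaute proteins to partly complementary sites in messenger RNAs, mainly through the seed, bases 2 to 8 of the strand. In the Dlk1-Dio3 domain the protein-coding genes Dlk1, Rtl1 and Dio3 are expressed from the paternal chromosome, while the non-coding RNAs Meg3, Rian and Mirg and the domain's microRNAs are expressed from the maternal one. Rtl1, derived from a retrotransposon and required for the placenta, lies opposite a maternal antisense transcript whose microRNAs, fully complementary to Rtl1 mRNA, are known to direct its cleavage. Brain is among the tissues where microRNAs of the domain are usually frequent.

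Shown are the mature strands of the 4 members inside the Rtl1 coding exon, and of Mir337 outside it. They were chosen because the levels of the 8 members, given below, divide along that line. Mir432, a further hairpin in that exon, had 0 counts and does not follow it. Neither does the single row at the Mir136 and Mir3071 hairpins, also in that exon, which stood below Mir337. The strands are written 5′ to 3′ from RefSeq on GRCm38.p6, with the seed in capitals.
miR-127-5p: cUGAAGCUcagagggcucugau
miR-127-3p: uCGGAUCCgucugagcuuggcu
miR-431-5p: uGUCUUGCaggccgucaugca
miR-431-3p: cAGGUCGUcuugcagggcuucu
miR-434-5p: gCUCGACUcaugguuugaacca
miR-434-3p: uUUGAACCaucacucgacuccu
miR-433-5p: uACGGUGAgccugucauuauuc
miR-433-3p: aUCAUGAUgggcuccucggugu
miR-337-5p: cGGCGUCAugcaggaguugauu
miR-337-3p: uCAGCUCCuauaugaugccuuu

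No seed was shared between the members, whose hairpins all had an entry with 5p and 3p strands in the RefSeq table. Only miR-540-3p shared its seed with another mouse mature strand there, miR-6915-5p. The Mir431 arms both hold the 10-nt run gucuugcagg and the Mir434 arms the 9-nt run uuugaacca. Runs of 9 nt or longer common to both arms were found in 9 of 677 mouse hairpins with 2 listed strands, or 1.33%. Across different hairpins of the group, the longest common run was cgucaugca in miR-337-5p and miR-431-5p. That was 1 of 112 pairs with a run of 9 nt or longer, 0.893%, against 0.167% of all pairs of mouse mature strands. These runs were looked up after the sequences had been seen.

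The 8 hairpins lie on the plus strand in 2 position classes. Mir431 (chr12:109590447-109590537), Mir433 (chr12:109591715-109591838), Mir127 (chr12:109592846-109592915) and Mir434 (chr12:109594506-109594599) lie wholly within the coding part of the second Rtl1 exon, which runs on the minus strand. Mir493 (chr12:109580233-109580315), Mir337 (chr12:109585789-109585885), Mir540 (chr12:109586080-109586146) and Mir665 (chr12:109586314-109586407) lie 8877, 3307, 3046 and 2785 nt beyond the 3′ end of Rtl1 as GENCODE M21 draws it (chr12:109589193-109600330). The longer Rtl1 model of RefSeq (chr12:109564900-109604418) spans all 8. The group's name thus holds for 8 genes under RefSeq and for 4 under GENCODE M21. Mir540 and Mir665 stand 167 nt apart, and Mir337 and Mir540 194 nt apart, while the 4 coding-exon members are spaced by 1007 to 1590 nt.

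**Figure D1:**
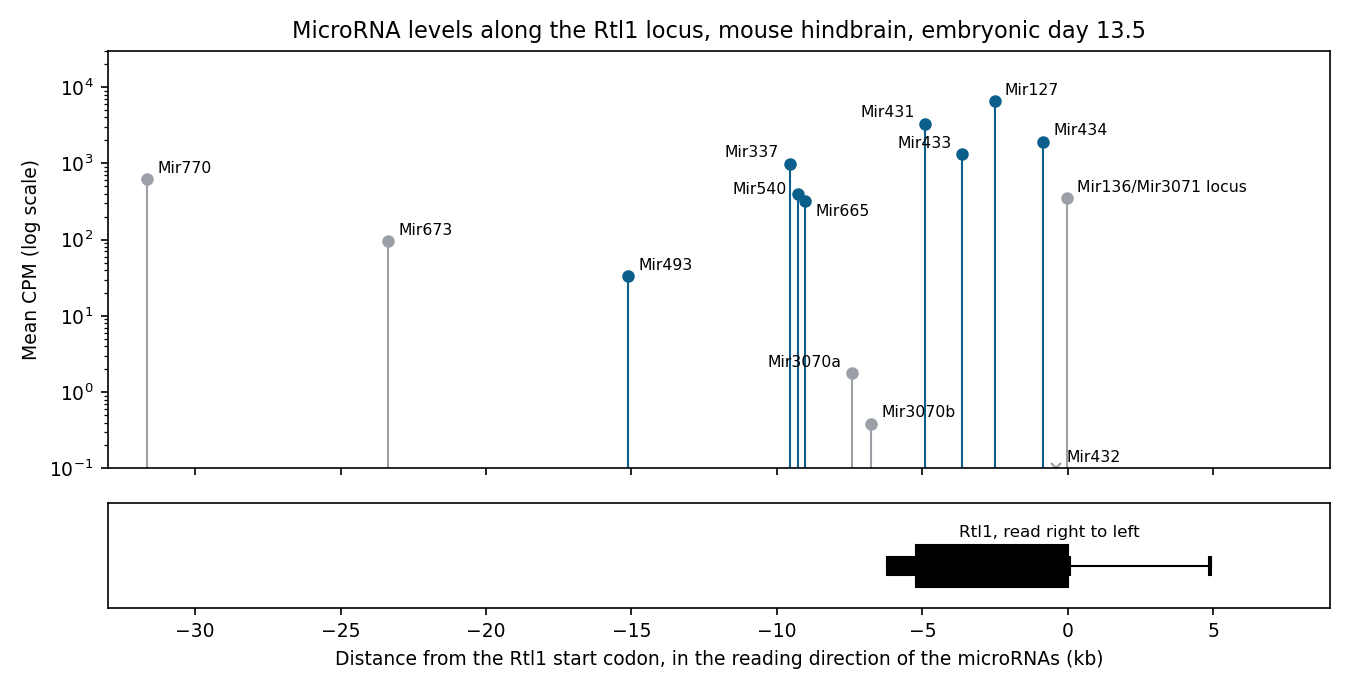
Mean level of each microRNA row around Rtl1 (vertical axis, CPM on a log scale, mean of 2 libraries) against its distance from the Rtl1 start codon (horizontal axis, kb, in the reading direction of the microRNAs), with Rtl1 drawn below as a thick coding part, thinner untranslated parts and a thin intron. Blue points are the 8 members, grey points other rows, the cross is Mir432 at 0 counts, and the tallest points stand over the coding part, led by Mir127 at 6490 CPM.

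The 4 coding-exon members match Rtl1 over their whole length. The full complement of each of their 8 mature strands occurred in the spliced Rtl1 transcript, and of no strand of Mir493, Mir337, Mir540 or Mir665. Among 1679 mouse mature sequences searched, 11 had a full complement there, the others being miR-136-5p, miR-136-3p and miR-432. All 11 belong to hairpins that lie in the coding exon on the other strand, so these matches follow from position. Mir493, Mir337, Mir540 and Mir665 lie outside the GENCODE M21 transcript that was searched. The Rtl1 site of miR-127-3p, whose first base is base 2495 of the coding sequence in codon 832, is printed in mRNA sense, followed by that of miR-431-5p at base 4925 in codon 1642.
Rtl1 site of miR-127-3p: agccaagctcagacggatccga
Rtl1 site of miR-431-5p: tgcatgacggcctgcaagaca
The sites of Mir434, from base 818, lay nearer the start codon, and those of Mir433, from base 3602, lay between the sites of Mir127 and Mir431.

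Levels are counts per 1000000 counts in the gene rows of a library (CPM). These rows held 3006571 counts in replicate 1 and 4508244 in replicate 2. A row counts reads of a whole hairpin, so the 5p and 3p strands of a gene cannot be told apart. In bulk tissue, more cells with a microRNA and more of it per cell cannot be told apart either. All 8 members had at least 10 counts in each library, a level reached by 18.0% of all gene rows. They were chosen by name and place, not by level. No member hairpin shared a stretch of 20 nt, on either strand, with a microRNA hairpin annotated elsewhere in the genome. Mir3544 overlaps Mir337 at its own place, on the other strand.

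Together the 8 genes had 45789 counts in replicate 1, or 15230 CPM (exact Poisson 95% interval 15091 to 15370), and 64863 counts in replicate 2, or 14388 CPM (14277 to 14499). The mean was 14809 ± 595 CPM (SD, n = 2), 1.48% ± 0.0595 of the counts. Of the 8 genes 7 stood above the median of the 356 genes with at least 10 counts in both libraries, 166 CPM, and 5 were among the 100 highest rows. The members' median was 1162 CPM.

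Mir127, the best studied of the group and a microRNA whose human counterpart targets BCL6, led at 6548 CPM in replicate 1 and 6431 CPM in replicate 2. Its mean of 6490 ± 83.0 CPM (SD, n = 2) placed it 28th of all rows, and its libraries differed by less than those of any other member in relative terms, with a coefficient of variation of 1.28%. Mir431, described in mouse muscle regeneration and axon regrowth, stood at 3502 CPM in replicate 1, against 3140 CPM in replicate 2, with a mean of 3321 ± 256 CPM. Mir434 reached 1988 CPM in replicate 1, against 1865 CPM in replicate 2, for a mean of 1927 ± 87.2 CPM. The levels of these genes did not overlap in either library, with Mir127 1.95 times Mir431 and Mir431 1.72 times Mir434 by their means.

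Mir433, whose human counterpart targets FGF20, was the lowest of the 4 coding-exon members at 1406 CPM in replicate 1 and 1255 CPM in replicate 2 (mean 1331 ± 107 CPM, SD, n = 2). Mir337, the highest outside the coding exon, stood at 1018 CPM in replicate 1, against 970 CPM in replicate 2 (mean 994 ± 33.9 CPM). Among the 8 members, the lowest in the coding exon was thus above the highest outside it in each library, by 1.38-fold in replicate 1 and 1.29-fold in replicate 2. Divided by hairpin length, a quantity chosen after the data were seen, this step shrank to 11.3 against 10.5 CPM per nt in replicate 1 and 10.1 against 9.998 CPM per nt in replicate 2, and the values of Mir433 and Mir337 then overlapped between libraries. The other steps in the order kept their direction per nt.

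The lower members were Mir540 at 406 CPM in replicate 1 and 377 CPM in replicate 2 and Mir665 at 332 and 312 CPM in the same order. Mir540 had a mean of 391 ± 20.7 CPM and Mir665 one of 322 ± 13.8 CPM (SD, n = 2 each). These neighbours differed by a factor of 1.22 and did not overlap between libraries. Mir493, whose human counterpart targets IGF1R, stood far below, with 89 counts or 29.6 CPM in replicate 1 (exact Poisson 95% interval 23.8 to 36.4) and 169 counts or 37.5 CPM in replicate 2 (32.0 to 43.6). It was 9.59 times lower than Mir665 by the means and the only member below the median of detected genes. Within this group Mir127 exceeded Mir493 by 221-fold in replicate 1 and 172-fold in replicate 2.

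**Figure D2:**
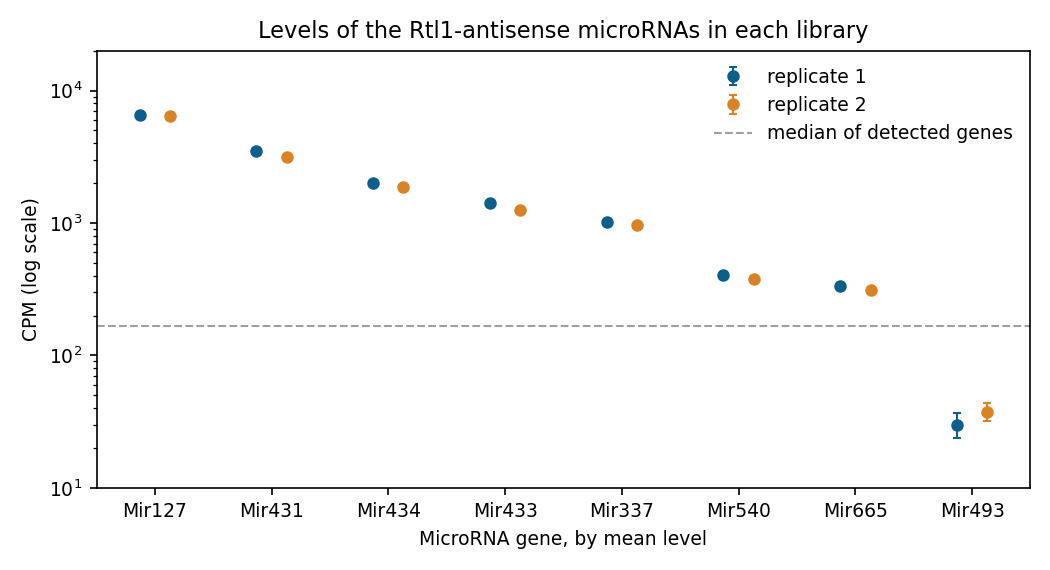
CPM (vertical axis, log scale) of each of the 8 genes (horizontal axis, by mean level) in replicate 1 and replicate 2, with exact Poisson 95% intervals that cover counting error only. The dashed line is the median of detected genes at 166 CPM, and Mir493 alone lies below it.

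All 7 neighbouring pairs in the order Mir127, Mir431, Mir434, Mir433, Mir337, Mir540, Mir665, Mir493 stood apart: the lower library of the higher gene exceeded the higher library of the next, and the Poisson intervals did not overlap in either library. The order is given as a description, with no test. The genes most like Mir127 in level over the 2 libraries lay on other chromosomes. By distance in log2 CPM they were Mir130b at 6732 CPM in replicate 1 and 6439 CPM in replicate 2 (distance 0.04), the mural-cell Mir143 at 6689 and 6291 CPM (0.044), and Mir30d at 6549 and 6713 CPM (0.062). Likeness over 2 libraries of 1 tissue is a likeness of level only.

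Composition does not depend on how the libraries are scaled. The 4 coding-exon members held 88.3% of the group's counts in replicate 1 (exact Clopper-Pearson 95% interval 88.0 to 88.6) and 88.2% in replicate 2 (88.0 to 88.5). The 4 genes beyond the GENCODE 3′ end held the other 11.7% in replicate 1 and 11.8% in replicate 2. The division between the position classes thus differed between libraries by less than its counting error.

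Within the coding-exon class the shares shifted slightly. Mir127 took 43.0% of the group's counts in replicate 1 (95% interval 42.5 to 43.5) and 44.7% in replicate 2 (44.3 to 45.1). Mir431 took 23.0% in replicate 1 (22.6 to 23.4) and 21.8% in replicate 2 (21.5 to 22.1). Mir433 held 9.23% in replicate 1 (8.97 to 9.50) and 8.72% in replicate 2 (8.51 to 8.94). For these 3 genes the intervals did not overlap. For Mir434, Mir337, Mir540, Mir665 and Mir493 they did, from 13.1% in replicate 1 and 13.0% in replicate 2 for Mir434 down to 0.194% and 0.261% for Mir493.

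**Figure D3:**
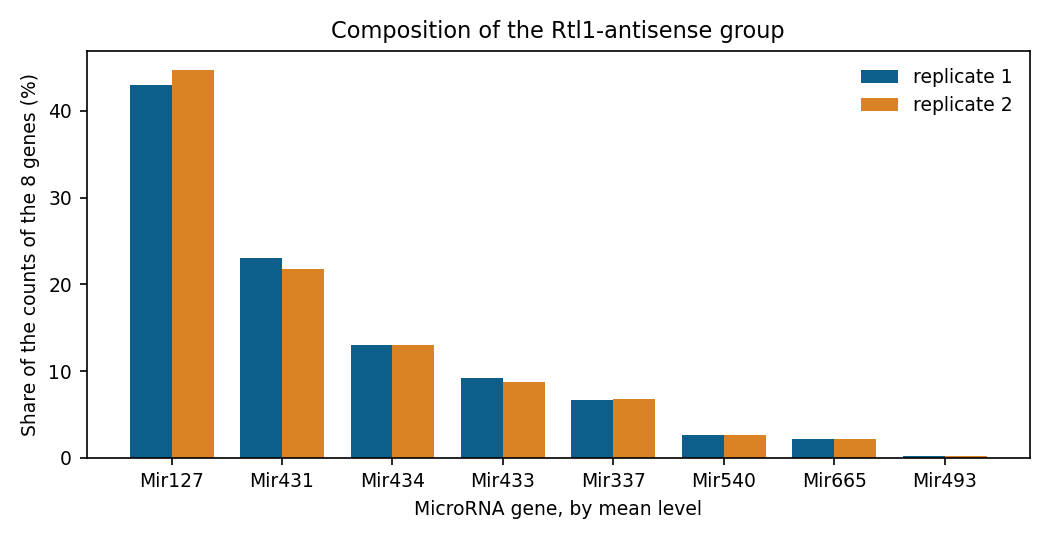
Share of each gene (horizontal axis) in the summed counts of the 8 genes (vertical axis, percent) in replicate 1 and replicate 2. Mir127 and Mir431 make up most of the 8 genes' counts, at 43.0% and 23.0% in replicate 1 and 44.7% and 21.8% in replicate 2, and Mir493 is below 1%.

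Set against each other, the libraries differed little in this group. The log2 ratio of replicate 1 over replicate 2, scaled by the trimmed mean of M-values (TMM), was above 0 for 7 of the 8 genes and ran from -0.31 for Mir493 to 0.20 for Mir433. The members' median was 0.12 and that of all 356 tested genes 0.01. In absolute size their median was 0.13, against 0.18 over all tested genes. These medians were not matched for level: ratios spread more at low counts, and the members' median level was 1162 CPM, against 166 CPM for detected genes. By an exact binomial test per gene, two-sided and adjusted over the 356 genes after Benjamini and Hochberg, 6 members were higher in replicate 1 and 0 lower. That test passed 25.0% of all tested genes as higher in replicate 1 and 20.2% as lower, 45.2% in all. It takes counting as the only error, so it compares these libraries and is more sensitive for genes with more counts, as most of these have.

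The largest ratios were those of Mir433, at 0.20 (exact 95% interval 0.14 to 0.26, adjusted p = 1.13e-10 by that exact test), and Mir431, at 0.19 (0.16 to 0.23, adjusted p = 8.45e-24). Mir434 lay at 0.13 (0.08 to 0.17) and Mir127, with the most counts, at 0.06 (0.03 to 0.09). Outside the coding exon, Mir540 lay at 0.14 (0.03 to 0.25) and Mir337 at 0.10 (0.04 to 0.17), both past the test. Mir665, at 0.12 (0.00 to 0.24), and Mir493, at -0.31 (-0.69 to 0.07), were not, with adjusted p = 0.0874 and 0.201 by the exact test. With library totals in place of TMM only 3 members passed, Mir431, Mir433 and Mir434. By edgeR's exact test, which adds a spread between replicates, 0 passed at a preset biological coefficient of variation (BCV) of 0.1. At the estimated BCV of 0.141 also 0 passed, with 0 at an unadjusted p under 0.05 in either case. The estimate came from these same 2 libraries taken as 1 group. It thus contains the differences under test, so few genes could pass at that setting.

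**Figure D4:**
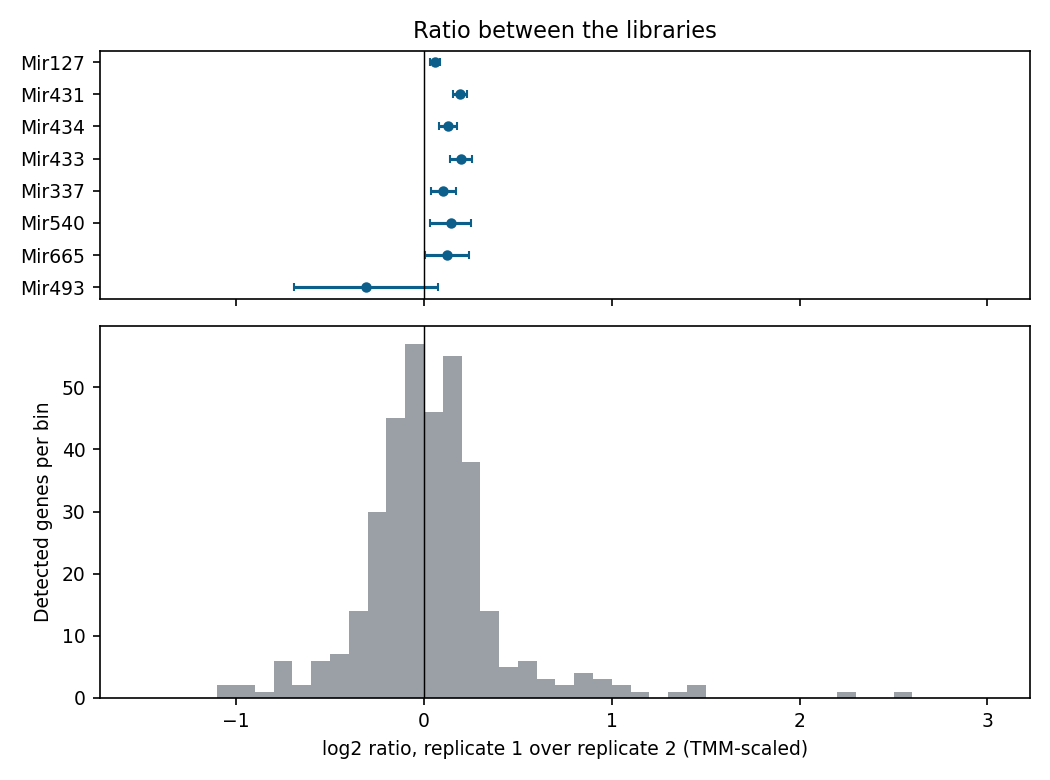
Upper panel: log2 ratio of replicate 1 over replicate 2 for each member with its exact 95% interval of counting error. Lower panel: number of detected genes per bin of the same ratio, over 356 genes; the members, from -0.31 to 0.20, lie within the bulk of the distribution.

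Within the Dlk1-Dio3 domain, taken as the 59 microRNA rows between Dlk1 and Dio3, the members held 19.6% of the counts in replicate 1 (exact Clopper-Pearson 95% interval 19.4 to 19.8) and 20.3% in replicate 2 (20.1 to 20.4), a mean of 19.9% ± 0.471 (SD, n = 2). The 37 rows from Mir379 to Mir410, the large cluster further along the maternal transcripts, held 76.9% in replicate 1 and 76.3% in replicate 2. The remaining 14 rows held 3.48% in replicate 1 and 3.45% in replicate 2. These shares leave out reads on the strand opposite to a row, where minus-strand rows of the cluster, named below, have nearly all of theirs. With both strands counted the members' share was lower, at 17.5%. The members' share was lower in replicate 1 by more than counting error (two-sided Fisher's exact test on the counts, p = 9.07e-10, odds ratio 0.959). With 1 library on each side, that test compares these libraries only. It was run on all 59 rows. The direction of the difference reversed without the rows that share a stretch of 20 nt with another hairpin, as given below.

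All 8 members were detected, against 29 of 37 Mir379 to Mir410 rows and 8 of 14 remaining rows. The undetected cluster rows include Gm25750, Gm25252, Gm24321 and Mir299b on the minus strand, whose reads lay all or nearly all on the opposite strand. Gm24321, for example, had 0 counts against 16995 in replicate 1. These fractions thus compare annotated rows. The median level of detected genes was 1162 CPM among members, 277 CPM in the Mir379 to Mir410 cluster and 224 CPM in the rest, and the ranges overlapped widely. Members ran from 33.5 to 6490 CPM and cluster genes from 15.0 to 23111 CPM. Mir487b of the cluster was the highest of the domain at 24995 CPM in replicate 1 and 21228 CPM in replicate 2. Its companions Mir369, at 7709 ± 586 CPM, and Mir382, at 5783 ± 307 CPM (SD, n = 2 each), stood directly above and below Mir127, which was 3rd in the domain. Mir431 was 8th, Mir434 9th, Mir433 12th, Mir337 14th, Mir540 23rd, Mir665 25th and Mir493 41st. These places do not count opposite-strand reads, such as those of Gm24321. The highest of the remaining rows was Mir370, at 776 ± 99.0 CPM, below the 5 highest members.

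The hairpin of Mir487b shares a stretch of 20 nt with another microRNA hairpin. Reads classed as multimapping stayed out of the gene rows, so its count is uncertain and may be too low. Without the domain's rows that share such a stretch the members' share was 32.1% ± 0.118, and was then slightly higher in replicate 1 than in replicate 2. Fisher's test was not repeated on the rows that were left. The ratio between libraries had the same sign in all 3 groups of rows. Its median was 0.12 for members, 0.19 for the detected Mir379 to Mir410 genes and 0.15 for the remaining detected genes, with 7 of 8, 22 of 29 and 7 of 8 genes above 0.

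**Figure D5:**
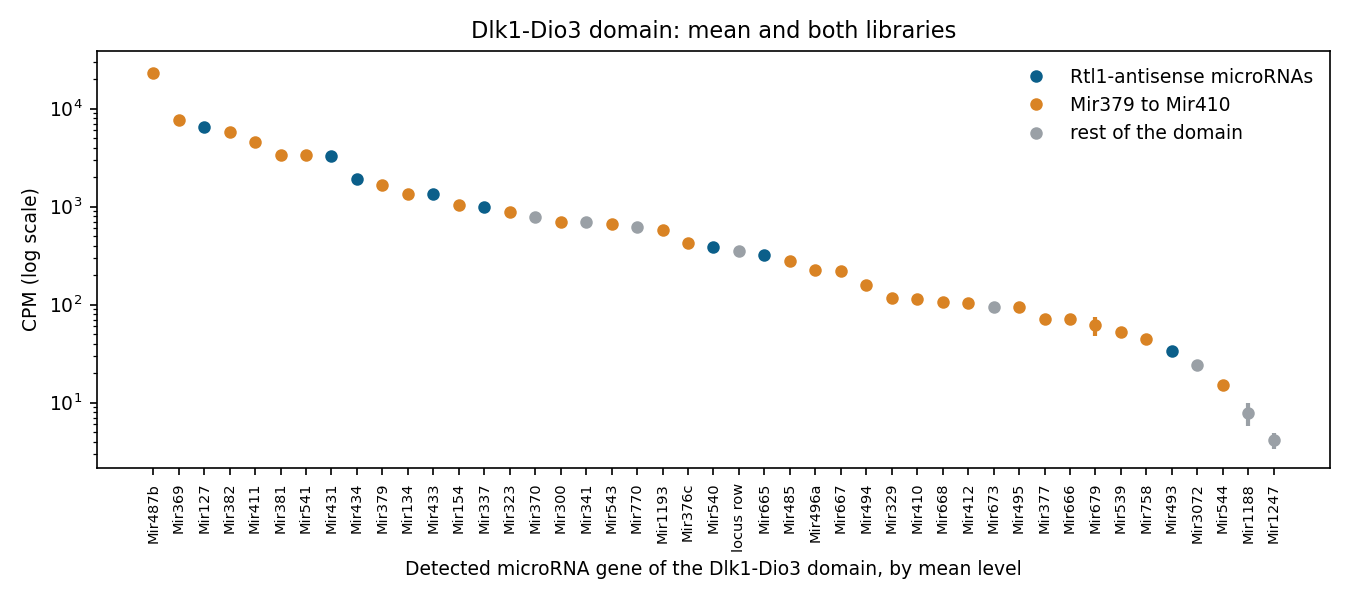
CPM (vertical axis, log scale) of the 45 detected microRNA rows of the Dlk1-Dio3 domain (horizontal axis, by mean level), as the mean with a line from the lower to the higher of 2 libraries; "locus row" is the row at the Mir136 and Mir3071 hairpins. The members are spread from Mir127 in 3rd place to Mir493 in 41st place, among genes of the Mir379 to Mir410 cluster.

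On the strand opposite to their own, 7 of the 8 members had 0 counts in each library, and Mir337 had 4 in replicate 1 and 5 in replicate 2. More than 3 such counts in both libraries were found in 0.912% of all gene rows.

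Other rows around the members ranged from 0 counts to a level between those of Mir337 and Mir540. Mir770, in Meg3, stood at 645 CPM in replicate 1, against 589 CPM in replicate 2, below Mir337 and above Mir540, and Mir673 had 101 and 88.9 CPM in the same order. Mir3070a had 4 counts in replicate 1 and 10 in replicate 2, and Mir3070b 1 and 2 counts. The Mir3070 hairpins share stretches of 20 nt with another hairpin, so these values are uncertain. Mir432, also in the Rtl1 coding exon, had 0 counts in each library, which allows up to 0.998 CPM in replicate 1 and 0.665 CPM in replicate 2. Thus the coding exon held hairpins from 0 counts to the level of Mir127.

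The end of the coding exon near the start codon holds Mir136 on the plus strand and Mir3071 on the minus strand, in hairpins that overlap (chr12:109595327-109595388 and chr12:109595318-109595397). A single row stands at this locus. Its identifier, ENSMUSG00000070129, has version 1 in these tables and version 2 in GENCODE M21, where it names Mir3071. The annotation used for counting was M4, which was not used here, so it cannot be told which of these microRNAs, on which strand, was counted. The row had 1071 counts or 356 CPM in replicate 1 and 1568 counts or 348 CPM in replicate 2, between Mir540 and Mir665, with 0 counts on the strand opposite to its own. The row was left out of the group. Adding it brought the group's share of the domain to 20.4% ± 0.494.

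Facts of the whole libraries bear on these values as follows. Mir10a and Mir10b, encoded in Hox clusters and used as markers of hindbrain and spinal cord, summed to 109408 CPM in replicate 1 and 132876 CPM in replicate 2. Of the 6 neural marker rows 2 were detected, Mir137 at 6132 CPM in replicate 1 and 6281 CPM in replicate 2 and Mir9-3 at 527 and 619 CPM in the same order, while Mir9-2 and the Mir124a rows, of the neuronal miR-124, stayed between 0.444 and 5.10 CPM. Mir9-2 and the Mir124a rows are numbered copies of multicopy genes, and the gene rows hold no reads classed as multimapping. Their values near 0 are thus uncertain and do not show that these markers of neurons were absent. Endothelial Mir126a stood at 20540 CPM in replicate 1, against 18917 CPM in replicate 2. Muscle markers summed to 149 CPM in replicate 1 and 86.3 CPM in replicate 2, with 3 of 7 rows detected and Mir1a-1, Mir133a-1 and Mir133a-2 at 0. The muscle rows at 0 and the Mir199a rows of the mesenchyme list are numbered copies as well. Their values, and the sums that include them, carry the same uncertainty and may be too low. Mesenchyme markers summed to 626 CPM in replicate 1 and 386 CPM in replicate 2 with 2 of 3 rows detected, and blood markers to 314 and 231 CPM with 3 of 3. Liver Mir122 stood at 36.9 CPM in replicate 1, against 42.8 CPM in replicate 2. The endothelial level and the muscle, mesenchyme and blood sums were higher in replicate 1, as 7 of the 8 members were, but single markers of a list went both ways. Blood Mir451a stood at 152 CPM in replicate 1, against 57.5 CPM in replicate 2, while Mir223 stood at 141 against 152 CPM and Mir144 at 20.3 against 20.9 CPM. Among muscle markers Mir208b stood at 100.4 CPM in replicate 1, against 17.7 CPM in replicate 2, and Mir206 at 32.6 against 64.1 CPM. The mesenchyme sum was carried by Mir214, at 612 CPM in replicate 1, against 371 CPM in replicate 2, with Mir199a-2 at 12.6 against 13.3 CPM. The part of these markers in the members' ratios was not tested.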

How the data were processed

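Short RNA from 2 hindbrain libraries was sequenced, and the deposited values are unnormalized read counts for each microRNA gene, in 1 table per library. Reads were aligned to mm10 and counted on GENCODE M4, per the text deposited with the tables. Which aligner and counter made them is not given in the sources used here. The tables hold 3 count columns, either strand and each strand alone. The first equalled the sum of the others in every gene row. The strand column that held 98.1% of gene counts was used as that of the annotated strand. Summary rows stayed out of library sizes: multimapping reads were 33.9% of reads in replicate 1 and 34.5% in replicate 2, unmapped reads 14.0% and 14.6%, and reads outside features 3.15% and 3.39%. Gene names and coordinates are from GENCODE M21, which named 1894 of 1973 rows. For 3 members the identifier's version differs between the tables and M21, so their M4 coordinates may differ.

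Levels are CPM of the gene-row totals, with exact Poisson 95% intervals, and shares have exact Clopper-Pearson intervals. Intervals and floors (3 counts for a count of 0) cover counting error only, since no molecular identifiers are named. The labels name separate biosamples and 1 donor identifier, not separate litters; SDs measure only the spread of these libraries, which may be technical, and the p-values counting error alone unless edgeR is named. With 1 group, edgeR's quasi-likelihood test could not be run. Genes with at least 10 counts in both libraries, 3.33 CPM in replicate 1 and 2.22 CPM in replicate 2, were tested genome-wide between libraries by the exact binomial test on TMM sizes (edgeR 4.0.16, R 4.3.3, scipy 1.17.1), adjusted over all such genes at 0.05. The test was tried first on simulated Poisson counts, which have no spread between replicates, so that trial does not cover such a spread. DESeq2 1.42.0 size factors were an alternative. Members, lists and tests were chosen with earlier results of these data known. Named genes are all members, the 3 genes nearest to the highest member in log2 CPM, the 3 highest Mir379 to Mir410 genes, the highest other gene of the domain, and every other microRNA gene of the interval. Marker lists covered hindbrain, neural, muscle, blood, endothelium, mesenchyme and liver.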

Additional observations from a re-analysis of the deposited data

Results flagged for a closer look

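The opposite-strand column, which no comparison above uses, held a signal in 1 member above the 3 counts that a count of 0 allows. Mir337 had 4 opposite-strand counts in replicate 1 and 5 in replicate 2, 0.131% and 0.114% of its reads on either strand. Mir3544 is annotated on that strand within the Mir337 hairpin (both arms of one overlap those of the other) and has no row of its own. The other 7 members had 0 opposite-strand counts in each library, while 0.912% of all gene rows exceeded 3 in both.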

How the results depend on the processing

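No paired analysis was possible because the replicates form 1 group and share no number with another group. The summed level of the members, 14809 CPM, stayed within 1 SD with the either-strand column, TMM sizes, DESeq2 size factors and the added Mir136 and Mir3071 locus row, and was 15523 CPM with all microRNA genes of the interval on the members' strand. Leaving out 1 replicate gave 14388 to 15230 CPM. Their share of the domain, 19.9%, was 17.5% with the either-strand column, 32.1% without hairpins that share a stretch of 20 nt and 20.4% with the locus row, an alternative chosen after seeing the data, and 19.6% to 20.3% when 1 replicate was left out. Of the 6 members past the exact binomial test 3 passed with library totals and 0 under edgeR's exact test at either BCV, where 13 and 5 of 356 genes passed at the preset and estimated BCV. The edgeR test adds a spread between replicates by construction, and the estimated BCV was taken from the same libraries that were then compared. With library totals only the scaling differed, and every member's log2 ratio was lower by the same amount, with a median of 0.09 in place of 0.12. All 8 members were detected at minimums of 1 and 10 counts, and 7 at 100, Mir493 being below it. No member's ratio changed sign under the alternatives run, and 7 of 8 were above 0 in each. A comparison of libraries without 1 replicate could not be made. Counting error limits Mir493 most among the members, with 89 counts in replicate 1.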
